A study of Mus musculus with 16 samples.

Results

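The growth hormone and STAT5 axis of the liver was followed through 10 genes that were taken from the count table by their symbols. They were the receptor gene *Ghr*, the transducer *Stat5b*, the feedback inhibitors *Socs2* and *Cish*, the circulating growth factor genes *Igf1* and *Igfals*, and *Hsd3b5*, *Elovl3*, *Cyp4a12a* and *Slco1a1*, 4 targets that male livers express at a high level. These were 10 of 52143 rows, and all 10 had too many counts to be removed by the filter on low values, which left 11324 genes to test. The 16 libraries were made from liver RNA of male C57BL6/J mice that were 6 weeks old when they were put on chow or on a high-fat diet (HFD) with 60% fat. During the 12 weeks on the diets, they received a subcutaneous injection every 2 weeks, either of saline or of an FGFR4 siRNA at 3 mg/kg. The groups were Chow (chow and saline), Chow/FGFR4 KD (chow and siRNA), HFD (HFD and saline) and HFD/FGFR4 KD (HFD and siRNA), with 4 libraries each, where KD stands for knockdown. The siRNA carried N-acetylgalactosamine, a sugar that hepatocytes take up. Since saline was the control and no unrelated siRNA was injected, lower *Fgfr4* and the presence of an siRNA cannot be told apart as sources of an effect.

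Growth hormone binds GHR at the hepatocyte surface, and the kinase JAK2 on its inner side then phosphorylates STAT5B, which moves to the nucleus and activates transcription. *Socs2* and *Cish* are switched on within a short time of a pulse and their proteins dampen the receptor, whereas IGF1 and its carrier subunit IGFALS are released to the blood and mediate growth. In male mice growth hormone arrives in pulses and in females it is nearly continuous, and the pulses sustain a set of male-biased liver genes and hold back a female-biased set.

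The STAT5 dimer is known to bind the palindrome TTCNNNGAA, which reads the same on both strands. RefSeq promoter windows of 300 bases, 250 before and 50 from the start site on, were at hand for 7 of the 10 genes (11 windows, build GRCm38.p6). The motif was found 4 times, in 1 window of *Cish* and in 2 of the 3 windows of *Igfals*. For comparison, 8.29% of 32817 windows of all genes held a match, and 0.457% held 2 or more. The windows of *Ghr*, *Stat5b*, *Igf1*, *Hsd3b5* and *Slco1a1* did not hold these letters. The windows of *Cish*, which had 2 matches, and of *Hsd3b5* and *Slco1a1*, which carried much of the variation described below, are printed 5′ to 3′ with matches in capitals. They lie at chr9:107296409-107296708 (plus strand), chr3:98645485-98645784 (minus strand) and chr6:141946913-141947212 (minus strand). The *Cish* matches TTCCTGGAA and TTCTTGGAA begin at bases 1 and 12 of the transcript and do not overlap, and the *Igfals* matches TTCTCAGAA and TTCCTAGAA lie 236 and 58 bases before their respective start sites. The *Hsd3b5* window lies upstream of the Ensembl gene model given below.
Cish: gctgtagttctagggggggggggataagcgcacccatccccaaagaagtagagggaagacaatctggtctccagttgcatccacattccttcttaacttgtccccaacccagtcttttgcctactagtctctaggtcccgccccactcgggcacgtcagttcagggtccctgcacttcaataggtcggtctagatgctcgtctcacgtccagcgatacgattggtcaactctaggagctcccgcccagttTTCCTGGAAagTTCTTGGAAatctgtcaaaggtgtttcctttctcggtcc
Hsd3b5: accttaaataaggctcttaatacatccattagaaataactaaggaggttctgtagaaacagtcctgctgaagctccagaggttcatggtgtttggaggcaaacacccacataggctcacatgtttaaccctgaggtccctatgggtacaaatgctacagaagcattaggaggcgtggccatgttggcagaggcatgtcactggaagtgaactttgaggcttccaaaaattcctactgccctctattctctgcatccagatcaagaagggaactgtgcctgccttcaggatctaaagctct
Slco1a1: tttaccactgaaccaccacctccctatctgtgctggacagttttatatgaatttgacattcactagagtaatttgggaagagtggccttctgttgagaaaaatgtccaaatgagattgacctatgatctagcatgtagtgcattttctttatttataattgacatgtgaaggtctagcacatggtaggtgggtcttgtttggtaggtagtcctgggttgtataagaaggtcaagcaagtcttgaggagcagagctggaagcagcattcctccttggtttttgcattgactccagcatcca

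All 10 genes are annotated as protein-coding in GRCm38. *Ghr* lies at chr15:3317760-3583492, *Stat5b* at chr11:100780731-100850724, *Socs2* at chr10:95385362-95417180 and *Igf1* at chr10:87858265-87937042. *Cish* lies at chr9:107296026-107302784, *Igfals* at chr17:24865997-24882010 and *Hsd3b5* at chr3:98618634-98630252. *Elovl3* lies at chr19:46131897-46135694, *Cyp4a12a* at chr4:115299046-115332815 and *Slco1a1* at chr6:141907282-141946962. Genes with similar sequence can share reads. Of the 31-base words of *Cyp4a12a* transcripts, 62.2% also occurred in *Cyp4a12b*. For *Hsd3b5* the share in other genes was 34.1% (25.6% in *Gm10681*), for *Stat5b* 15.2% (15.1% in *Stat5a*), and at most 6.18% for the others.

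Levels of different genes were compared per transcript length, as TPM (counts divided by transcript length and scaled to library size) in the Chow group. *Elovl3* had the highest mean at 556, followed by *Ghr* at 463, *Igf1* at 347, *Cyp4a12a* at 159, *Hsd3b5* at 149 and *Slco1a1* at 124. Below them came *Igfals* at 31.7, *Socs2* at 25.4, *Stat5b* at 13.5 and *Cish* at 6.04. The neighbours *Cyp4a12a*, *Hsd3b5* and *Slco1a1*, and likewise *Igfals* and *Socs2*, did not differ beyond their spread, since the coefficients of variation in Chow were 19.8%, 9.15% and 13.1% for the first 3 and 5.38% and 48.2% for the other pair. These values rest on the median length of the annotated coding transcripts.

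Total counts ranged from 3445949 to 5976449 per library, and the levels below are CPM (counts scaled to library size) with TMM factors, where 3 counts, taken as the floor, correspond to 0.432 to 0.908 CPM. Changes were fitted with limma-voom, and a gene counted as called where its p was under 0.05 and its p after Benjamini-Hochberg adjustment was under 0.25, which is the threshold of the study. *Fgfr4*, the siRNA target, was measured first. It read 27.9, 25.8, 36.3 and 28.9 CPM in Chow, 5.95, 6.17, 4.24 and 2.76 in Chow/FGFR4 KD, 30.1, 28.6, 21.8 and 22.4 in HFD and 2.82, 2.43, 5.31 and 4.40 in HFD/FGFR4 KD. Every KD library was below every saline library, and the log2 change was −2.78 on HFD (adjusted p = 9.06e-05) and −2.62 on chow (adjusted p = 0.000223) by limma-voom. In each KD group 1 library stood apart. HFD/FGFR4 KD 1 was close to the chow-fed mice in several gene groups, and Chow/FGFR4 KD 4 had a median of 13 acute-phase genes 1.76 above the Chow mean on the log2 scale. For part of the results that rest on them, values without them are given as well. Each library is taken as a separate mouse, which the labels do not spell out, so p-values measure only the spread between these 16 libraries. In whole liver RNA fewer cells of a type and less RNA per cell cannot be told apart.

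**Figure D1:**
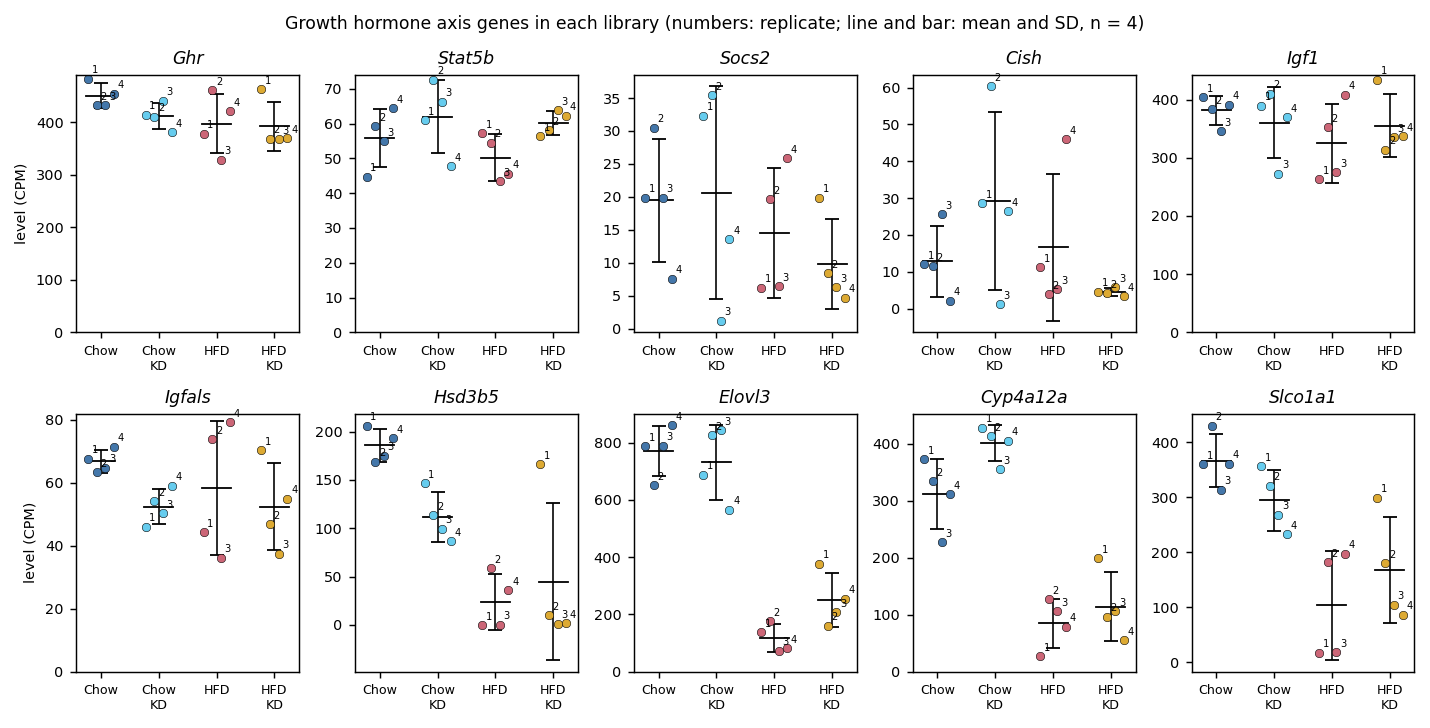
Level in CPM (vertical axes, linear, a panel for each gene) of the 10 genes in the 4 groups; each point is a library with its replicate number, and lines with bars are the mean and SD (n = 4). *Elovl3*, *Cyp4a12a*, *Hsd3b5* and *Slco1a1* lay lower in all 4 HFD libraries than in all 4 Chow libraries, *Socs2* and *Cish* were scattered within groups except *Cish* in HFD/FGFR4 KD, and *Ghr* and *Stat5b* showed little scatter.

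In saline-injected mice, HFD went with lower levels of the 4 male-biased targets, while the receptor, transducer, feedback and IGF genes did not pass the test with all libraries. *Ghr*, *Igf1* and *Igfals* did pass under some alternatives, as given with their values. Compared to Chow, the mean level in HFD was 12.8% for *Hsd3b5*, 15.2% for *Elovl3*, 27.2% for *Cyp4a12a* and 28.3% for *Slco1a1*. These 4 of the 10 genes were called lower and none was called higher, where 12.7% of all genes were called lower and 13.3% higher. In the same 4 genes all HFD libraries lay below all Chow libraries, as in 7.76% of all genes tested. The median log2 change of the 10 genes was −0.45, against 0.01 for all genes.

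**Figure D2:**
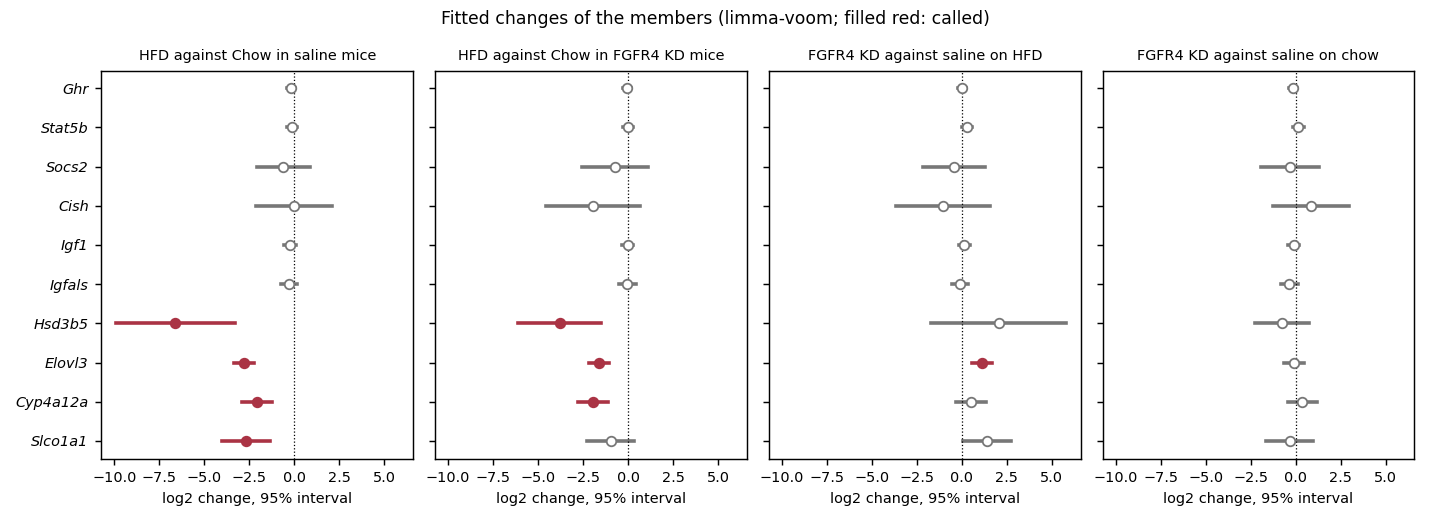
Log2 change fitted by limma-voom (horizontal axes, the same in all panels) with its 95% interval for each of the 10 genes in 4 comparisons; filled red points were called. Called genes were *Hsd3b5*, *Elovl3*, *Cyp4a12a* and *Slco1a1* for diet in saline mice, the first 3 of these for diet in KD mice, and *Elovl3* for KD on HFD.

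*Elovl3*, an elongase of very long chain fatty acids, showed the clearest change. It read 788, 651, 789 and 861 CPM in Chow and 138, 177, 73.1 and 82.0 in HFD, with means of 772 ± 87.5 and 117 ± 48.8 (SD, n = 4). The lowest Chow library was far above the highest HFD library. *Elovl3* fell by 2.80 on the log2 scale (SE 0.266, 95% interval −3.36 to −2.24, adjusted p = 5.06e-05), and by p it ranked 2 among the 11324 genes.

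*Cyp4a12a* encodes a male-biased fatty acid and arachidonic acid hydroxylase. It read 373, 334, 227 and 312 CPM in Chow and 27.1, 127, 107 and 78.6 in HFD, so the groups did not overlap, with HFD 1 lowest. The log2 change was −2.07 (SE 0.389, −2.89 to −1.25, adjusted p = 0.00433). Because most of its sequence is shared with *Cyp4a12b*, both were also summed into a single feature, a choice made after seeing the data, and the change was then −2.29 (adjusted p = 0.00285).

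*Slco1a1* encodes an uptake transporter for bile acids and steroid conjugates. It read 361, 430.2, 313 and 361 CPM in Chow and 17.5, 182, 18.6 and 197 in HFD. The HFD libraries fell into a low pair and a high pair, HFD 1 and 3 being far below HFD 2 and 4, and all were below Chow. The log2 change was −2.68 (SE 0.635, −4.02 to −1.33, adjusted p = 0.0148), and −1.82 by edgeR, which averages on the count scale.

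*Hsd3b5*, a male-specific steroid dehydrogenase and reductase, read 206, 169, 175 and 193 CPM in Chow. In HFD it was at 0, 58.8, 0.153 and 35.9 CPM, so the same HFD 1 and 3 were at or under the floor and HFD 2 and 4 were well above it. The groups did not overlap, with means of 186 ± 17 and 23.7 ± 28.9 (SD, n = 4). The log2 change fitted by limma-voom was −6.61 (SE 1.58, −9.94 to −3.27, adjusted p = 0.0153), the largest in size of all genes tested. That size rests on the near-zero libraries. edgeR gave −2.99 (adjusted p = 0.114), and DESeq2 gave −2.98 with no adjusted p. Adding *Gm10681*, which reached at most 0.421 CPM, left the change at −6.60.

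Among other genes known to be male-biased in mouse liver, 18 of the 20 tested (of 22 listed) fell on HFD in saline mice, where 12.7% of all genes did. None rose, against 13.3% of all genes, and the median change of the 20 was −1.34. The 3 with the smallest p were *Gstp1*, a glutathione transferase (−2.14, adjusted p = 0.000143), *Serpina1e*, an alpha-1 antitrypsin paralog (−4.73, adjusted p = 0.00106), and *Cyp4a12b* (−4.56, adjusted p = 0.0013). *Gstp1* read 1064, 1243, 734 and 841 CPM in Chow and 201, 223, 209 and 229 in HFD. *Serpina1e* read 10296, 11448, 6695 and 8654 CPM in Chow and 105, 949, 145 and 933 in HFD. *Gstp1* was nearly even among the HFD mice, whereas *Serpina1e* again put HFD 1 and 3 below HFD 2 and 4. The median of the 20 genes against the Chow mean was −2.14, −0.84, −1.92 and −0.79 in HFD 1 to 4. *Serpina1e*, *Cyp4a12b* and the *Mup* genes belong to families of near-identical members, so their single values are uncertain and their calls are not independent.

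Of 32 genes known to be female-biased, 11 passed the filter, and these rose more often than they fell on HFD in saline mice (9 higher, 1 lower, median 1.25). Among all genes tested, 13.3% rose and 12.7% fell. *Cyp17a1*, an enzyme of androgen synthesis, rose by 2.67 (adjusted p = 0.0119), from 2.87, 3.91, 4.26 and 3.31 CPM in Chow to 28.8, 8.66, 44.8 and 25.04 in HFD. The flavin monooxygenase gene *Fmo2* rose by 1.25 (adjusted p = 0.0153) and the reticulon gene *Rtn4* by 0.99 (adjusted p = 0.0157). *Cyp2c40*, which falls outside the naming rule and was chosen after its values were seen, was the gene that fell (−2.93). Since genes low in chow-fed males were open to removal by the filter, the 31 list genes with any count were fitted with no filter too. There 19 rose and 6 fell, where 8.38% of 24944 genes rose and 13.0% fell in the same fit. Some of these calls were of genes under 1 CPM in all 16 libraries. Examples, named after their values were seen, are *A1bg*, which rose, and *Sult2a1*, which fell. The list genes that fell also included *Cyp3a44*, *Cyp3a41a* and *Cyp2c69*, which read at most 2.43, 5.59 and 7.89 CPM in Chow and at most 0.747, 1.24 and 0.744 in HFD, so the list did not move as a whole. *Cyp2b9*, a female-specific cytochrome P450, read 0 to 3.20 CPM in the chow-fed saline mice and 300.3, 115, 224 and 44.0 in HFD, without overlap (adjusted p = 0.129). No fold is given for *Cyp3a44*, *Cyp3a41a*, *Cyp2c69* and *Cyp2b9*, since some libraries of the lower group were at or under the floor. They too were named after their values were seen.

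**Figure D3:**
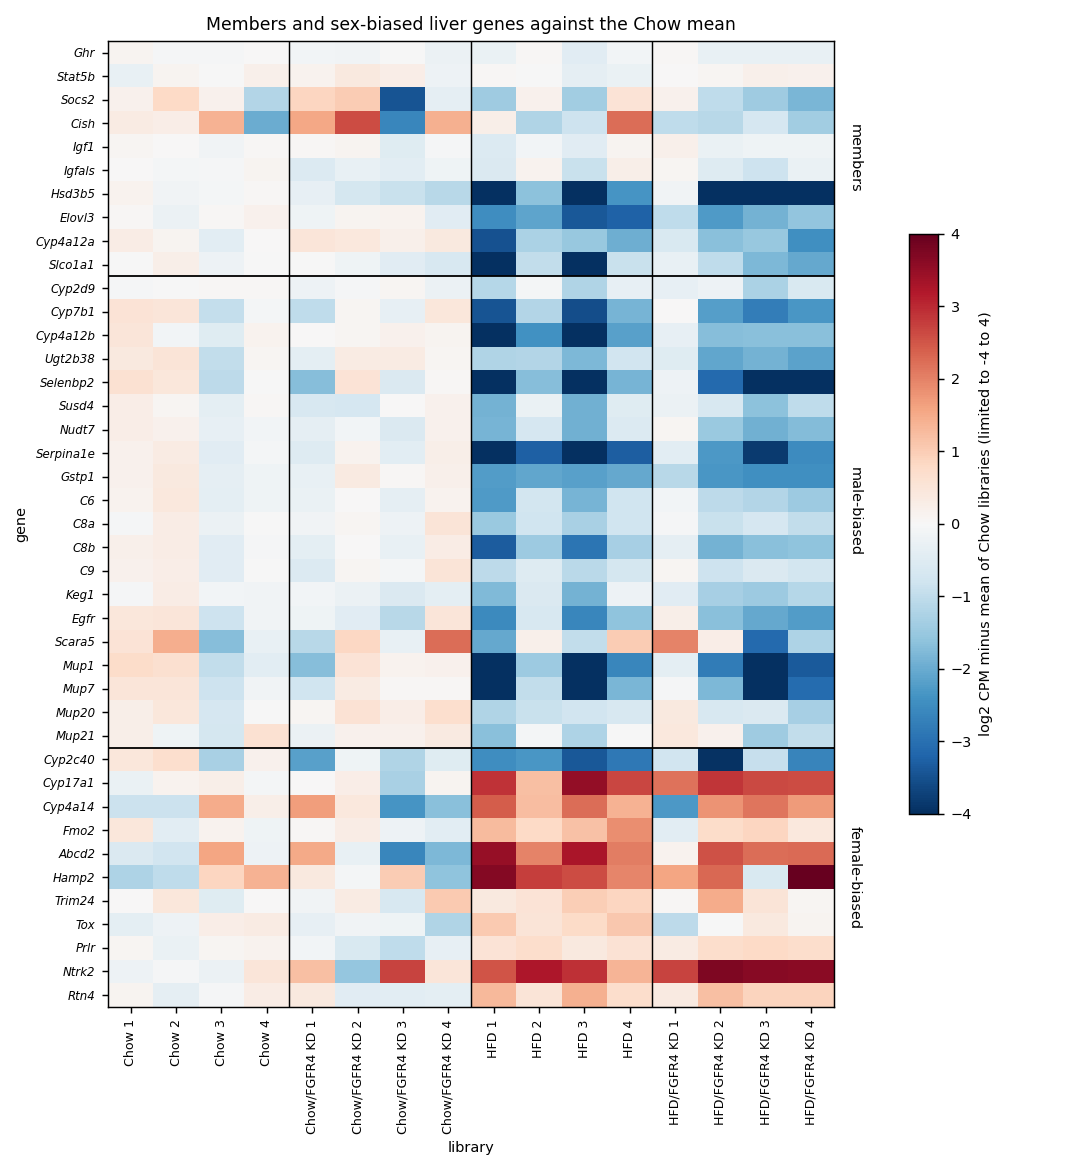
Heat map of log2 CPM minus the mean of the Chow libraries (colour scale limited to −4 to 4) for the 10 genes and the tested male-biased and female-biased liver genes (rows) in 16 libraries (columns). The male-biased block is blue in HFD, darkest in HFD 1 and 3, and again in HFD/FGFR4 KD 2, 3 and 4, while HFD/FGFR4 KD 1 is near the Chow colours with a list median of −0.15.

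The receptor and its transducer changed little. *Ghr* read 483, 432, 432 and 455 CPM in Chow, 415, 411, 441 and 382 in Chow/FGFR4 KD, 378, 461, 329 and 422 in HFD and 463, 369, 368 and 370.0 in HFD/FGFR4 KD. Diet groups overlapped in the saline mice, and the change was −0.19 (95% interval −0.41 to 0.03, adjusted p = 0.256). Without HFD/FGFR4 KD 1 and Chow/FGFR4 KD 4, which enter that test only through the shared estimate of the spread, the change was still −0.19 and the adjusted p was 0.181, so that *Ghr* was then called. It was called too without HFD 2 (−0.27, adjusted p = 0.111) and with library quality weights (−0.23, adjusted p = 0.125), and the change was −0.10 without HFD 3. On HFD, the KD change of *Ghr* was −0.02 (−0.23 to 0.20), or −0.097 without HFD/FGFR4 KD 1. *Stat5b* read 44.8, 59.3, 55.0 and 64.4 CPM in Chow, 61.0, 72.6, 66.3 and 47.8 in Chow/FGFR4 KD, 57.2, 54.5, 43.5 and 45.6 in HFD and 56.3, 58.2, 63.8 and 62.2 in HFD/FGFR4 KD. All groups overlapped with the Chow libraries. Its change was −0.14 for diet (−0.42 to 0.14) and 0.27 for KD on HFD (−0.01 to 0.54), neither of which passed the test.

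Of 9 genes for receptors, the kinase, an adaptor and STAT proteins, 8 were tested. On HFD in saline mice 2 rose and none fell, where 13.3% of all genes rose and 12.7% fell. The median was 0.02, and 1 of the 2 calls was left without Chow 2. *Prlr*, the prolactin receptor, rose by 0.55 (adjusted p = 0.0307). *Prlr* read 64.8, 51.2, 65.3 and 67.9 CPM in Chow and 91.2, 102, 80.8 and 91.7 in HFD, without overlap. In KD mice it was again the called gene of this list, with a rise of 1.13 (adjusted p = 0.00139), where 10.1% of all genes rose. No gene of the list was called for KD on either diet.

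*Socs2* and *Cish*, whose transcripts are short-lived and follow single pulses, scattered widely within the groups, with *Cish* in HFD/FGFR4 KD as the exception. *Socs2* read 19.9, 30.5, 19.9 and 7.59 CPM in Chow, 32.3, 35.4, 1.21 and 13.6 in Chow/FGFR4 KD, 6.20, 19.6, 6.44 and 25.8 in HFD and 19.9, 8.41, 6.31 and 4.66 in HFD/FGFR4 KD. The highest and the lowest mouse of Chow/FGFR4 KD differed by 29.3-fold, and all groups overlapped. *Cish* read 12.1, 11.5, 25.6 and 2.13 CPM in Chow, 28.6, 60.4, 1.21 and 26.5 in Chow/FGFR4 KD, 11.2, 3.92, 5.21 and 46.0 in HFD and 4.55, 4.20, 5.81 and 3.37 in HFD/FGFR4 KD. Chow/FGFR4 KD spanned 49.8-fold, and its replicate 3 was lowest for both genes, at 4 counts each. By contrast the 4 HFD/FGFR4 KD libraries of *Cish* lay within 1.73-fold of each other.

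With that spread the tests were imprecise. For diet in saline mice the change was −0.62 for *Socs2* (95% interval −2.09 to 0.86) and −0.04 for *Cish* (−2.15 to 2.08), so changes of 2 on the log2 scale in either direction lie inside the interval of *Cish*. For KD on HFD it was −0.42 for *Socs2* (−2.13 to 1.29, and −0.82 without HFD/FGFR4 KD 1) and −1.05 for *Cish* (−3.64 to 1.54). For diet in KD mice *Cish* had −1.95 (−4.54 to 0.63, adjusted p = 0.393), and it was called by edgeR (−2.69, adjusted p = 0.0925) and DESeq2 (−2.70, adjusted p = 0.0622), and by limma-voom without Chow/FGFR4 KD 3 (−2.96, adjusted p = 0.0818). Without that library *Socs2* was called too (−1.60, adjusted p = 0.167).

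Of 13 feedback genes and inhibitors, these 2 included, 12 were tested. The median on HFD in saline mice was −0.08. *Socs4* fell (−0.38, adjusted p = 0.174) and none rose, where 12.7% of all genes fell and 13.3% rose. That call was absent when any one of Chow 1, 2, 4 or HFD 1, 2, 3 was left out, and 3 genes were called without HFD 4. In KD mice the phosphatase gene *Ptpn6* rose on HFD (0.44, adjusted p = 0.0786), while *Socs3* (−1.66, adjusted p = 0.147) and *Ptpn11* (−0.21, adjusted p = 0.183) fell. *Socs3* answers to inflammatory cytokines, and it read 8.33, 23.3, 41.5 and 40.0 CPM in Chow/FGFR4 KD against 10.2, 5.53, 8.47 and 4.40 in HFD/FGFR4 KD. In that comparison the list held 3 called genes of the 12 tested, where 10.1% of all genes rose and 10.1% fell. The count was between 1 (without Chow/FGFR4 KD 4, HFD/FGFR4 KD 2 or HFD/FGFR4 KD 4) and 5 (without Chow/FGFR4 KD 3) when a library was left out. No gene of the list was called for KD.

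*Igf1*, the main circulating effector of growth hormone, read 404, 384, 346 and 392 CPM in Chow, 389.6, 409.9, 273 and 370.0 in Chow/FGFR4 KD, 263, 353, 275 and 408 in HFD and 434, 314, 335 and 337 in HFD/FGFR4 KD. HFD 1 and 3 were below all Chow libraries and HFD 4 was above them. The diet change in saline mice was −0.25 (95% interval −0.56 to 0.06, adjusted p = 0.301). It was called without HFD 4 (−0.37, adjusted p = 0.131) and with library quality weights (−0.32, adjusted p = 0.177), and was −0.16 without HFD 1. The KD change on HFD was 0.14 (−0.17 to 0.45), or 0.039 without HFD/FGFR4 KD 1. *Igfals*, whose protein holds IGF1 in a ternary complex in blood, read 67.7, 63.4, 64.7 and 71.5 CPM in Chow, 46.0, 54.2, 50.3 and 59.0 in Chow/FGFR4 KD, 44.2, 73.9, 36.2 and 79.1 in HFD and 70.2, 46.9, 37.5 and 54.9 in HFD/FGFR4 KD. HFD 1 and 3 were again the low pair. Its diet change in saline mice was −0.28 (−0.74 to 0.17, adjusted p = 0.436), between −0.076 without HFD 3 and −0.45 without HFD 4, where it was called (adjusted p = 0.2).

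Of 12 genes of the IGF system, 10 were tested, and those called were binding protein genes. On HFD in saline mice 2 fell and 2 rose (median −0.15), where 12.7% of all genes fell and 13.3% rose. *Igfbp2* fell by 1.56 on the log2 scale (adjusted p = 0.0032) and *Igfbp1*, which insulin represses, fell by 2.23 (adjusted p = 0.014), while *Igfbp7* rose by 0.65 (adjusted p = 0.0179). *Igfbp2* read 158, 233, 132 and 156 CPM in Chow, 53.3, 86.0, 40.2 and 54.5 in HFD, and 142, 99.4, 248 and 147 in HFD/FGFR4 KD. Every HFD/FGFR4 KD library was above every HFD library, and the KD change on HFD was 1.42 (adjusted p = 0.0453). *Igfbp3*, which carries IGF1 with IGFALS and is made by non-parenchymal liver cells, fell with KD on HFD (−0.95, adjusted p = 0.228), with 20.03, 11.4, 16.9 and 15.95 CPM in HFD and 5.20, 9.96, 7.80 and 11.4 in HFD/FGFR4 KD. Of these 2 KD calls, 1 was left without HFD/FGFR4 KD 1 and also without any one of Chow 1, Chow/FGFR4 KD 2 or 3, HFD 1, 3 or 4, and HFD/FGFR4 KD 3 or 4. For KD on HFD, 1.50% of all genes rose and 1.64% fell. In KD mice *Igfbp1* fell on HFD (−2.32, adjusted p = 0.0236), and *Igfbp7* (0.45, adjusted p = 0.154) and *Igfbp4* (0.21, adjusted p = 0.236) rose. The 3 calls, in a comparison where 10.1% of all genes rose and 10.1% fell, became 1 without Chow/FGFR4 KD 4, HFD/FGFR4 KD 2 or HFD/FGFR4 KD 4.

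On HFD, KD went with a partly higher *Elovl3* and with no called change in the other 9 genes. This was 1 of 10 genes called higher and none lower, where 1.50% of all genes were called higher and 1.64% lower, and the median change was 0.20. Over all genes 356 were called, 89 without HFD 3, 605 without HFD 2 and 138 without HFD/FGFR4 KD 1. *Elovl3* read 377, 160.2, 208 and 255 CPM in HFD/FGFR4 KD against 138, 177, 73.1 and 82.0 in HFD, with a mean of 250.1 ± 93.1 (SD, n = 4), which is 32.4% of the Chow mean. HFD/FGFR4 KD 2 was below HFD 2, so the groups overlapped by that pair. The change was 1.11 (SE 0.263, 95% interval 0.56 to 1.67, adjusted p = 0.0936). Without HFD/FGFR4 KD 1 it was 0.89 (adjusted p = 0.235), and without HFD 3 it was not called (adjusted p = 0.277).

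*Slco1a1* read 299, 180.0, 105 and 87.1 CPM in HFD/FGFR4 KD, between the low and the high pair of HFD in 3 of 4 libraries. Its change with KD on HFD was 1.39 (95% interval 0.05 to 2.73, adjusted p = 0.435) and was not called. Its size depended on single HFD mice and on the tool. It was 0.79 without HFD 1, 0.83 without HFD 3, 0.70 by edgeR and 0.69 by DESeq2, whereas it was called without HFD 2 (1.98, adjusted p = 0.167), without HFD 4 (1.96, adjusted p = 0.237) or with library quality weights (1.64, adjusted p = 0.225). *Hsd3b5* read 166, 10.1, 1.49 and 1.56 CPM. Replicate 1 had nearly the Chow level and the other 3 were lower than HFD 2 and 4, and the change was 2.04 (−1.73 to 5.81, adjusted p = 0.737). Over single libraries left out it ran from 0.22 (without HFD 1) to 3.46 (without HFD 2), with 0.97 without HFD 3, 3.13 without HFD 4 and 0.62 without HFD/FGFR4 KD 1, and it was 0.94 by edgeR, 0.92 by DESeq2 and 0.64 with a replicate block. *Cyp4a12a* read 199, 96.6, 106 and 55.2 CPM and its change was 0.51 (−0.33 to 1.34). It was 0.018 without HFD 1 and 0.20 without HFD/FGFR4 KD 1, and 0.78 without HFD 2, 0.80 without HFD/FGFR4 KD 4 and 0.78 when summed with *Cyp4a12b*, and it was called in none of these.

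Of the 20 other male-biased genes, 2 rose with KD on HFD and none fell, with a median of 0.33. Among all genes 1.50% rose and 1.64% fell. The 2 male-biased genes were *Cyp4a12b* (3.20, adjusted p = 0.0807) and *Serpina1e* (2.47, adjusted p = 0.171). *Cyp4a12b* read 0.443, 15.3, 1.87 and 18.1 CPM in HFD and 66.7, 25.6, 25.8 and 25.6 in HFD/FGFR4 KD, without overlap. It read 116, 76.8, 59.4 and 91.6 in Chow, so that 3 of the 4 KD mice stayed below every Chow mouse. Of the list 1 gene was called without HFD 1 or HFD/FGFR4 KD 1 or 4, none without HFD 3 and 3 without HFD 2. Among the 11 female-biased genes *Tox*, a nuclear factor gene (−1.03, adjusted p = 0.19), and *Fmo2* (−0.85, adjusted p = 0.225) fell and none rose, with no call left without HFD/FGFR4 KD 1 or 4 or HFD 1, 3 or 4, and 1 without HFD/FGFR4 KD 3 or Chow/FGFR4 KD 3. With no filter, 3 of the 31 female-biased genes with any count fell with KD on HFD and 1 rose. In the same fit 329 of 24944 genes were called in either direction. *Cyp2b9* fell (adjusted p = 0.123 by limma-voom), to 0.217, 40.3, 5.45 and 56.7 CPM, which overlapped with HFD 4. The gene that rose was *Atp6v0d2* (adjusted p = 0.196), without overlap. It was named after its values were seen.

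On chow, KD changed none of the 10 genes by the test, and *Fgfr4* was the single gene called, 0.00883% of those tested. At an unadjusted p under 0.05 there were 519 genes and none of the 10. In *Hsd3b5* and *Igfals* all 4 KD libraries were below all 4 Chow libraries, as in 1.18% of all genes. *Hsd3b5* read 146, 113, 99.6 and 86.3 CPM in Chow/FGFR4 KD, 60.0% of the Chow mean, and its change was −0.75 (95% interval −2.24 to 0.73, adjusted p = 0.976). The fit used 1 spread per gene over all 4 groups, so this interval also carries the scatter of the HFD-fed mice. The SD of log2 CPM of *Hsd3b5* was 0.13 in Chow and 0.32 in Chow/FGFR4 KD, against 3.82 in HFD and 3.03 in HFD/FGFR4 KD. It was also not called when only the groups compared were fitted. *Igfals* had −0.36 (−0.83 to 0.11, adjusted p = 0.976). *Elovl3* read 689, 826, 844 and 566 CPM, *Cyp4a12a* 428, 414, 356 and 406, and *Slco1a1* 356, 321, 268 and 233. Their changes of −0.09 (−0.66 to 0.48), 0.38 (−0.43 to 1.19) and −0.33 (−1.63 to 0.98) were not called (*Elovl3* 0.028 without Chow/FGFR4 KD 4, and *Slco1a1* −0.22 without it and HFD/FGFR4 KD 1), and the median of the 10 genes was −0.11. The interval of *Slco1a1* likewise carries its SD of 1.94 in HFD and 0.80 in HFD/FGFR4 KD, against 0.19 in Chow and 0.27 in Chow/FGFR4 KD. No gene of any list described here was called for KD on chow.

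The diet was also compared within the KD mice, which is a comparison with other libraries than those of the saline mice. Of the 10 genes 3 fell, *Elovl3* (−1.60, SE 0.265, adjusted p = 0.00488), *Cyp4a12a* (−1.95, SE 0.388, adjusted p = 0.0155) and *Hsd3b5* (−3.81, SE 1.09, adjusted p = 0.0672), and none rose. Among all genes 10.1% fell and 10.1% rose. *Elovl3* and *Cyp4a12a* did not overlap between diets, as in 5.61% of all genes in the lower direction, and *Hsd3b5* overlapped through HFD/FGFR4 KD 1. The call of *Hsd3b5* was lost with edgeR (−1.32, adjusted p = 0.537), and without HFD/FGFR4 KD 1 the change was −5.24 (adjusted p = 0.0399). *Slco1a1* had −0.96 (95% interval −2.27 to 0.34, adjusted p = 0.407), or −1.30 without that library (adjusted p = 0.253), and it was called when only the groups compared were fitted (−0.96, adjusted p = 0.16). Of the 20 other male-biased genes 15 fell (median −1.12), led by *Gstp1* (−2.18, adjusted p = 0.000277), *Ugt2b38* (−1.74, adjusted p = 0.0248) and *Cyp4a12b* (−1.45, adjusted p = 0.0732). That count was 18 without HFD/FGFR4 KD 1, 8 without HFD/FGFR4 KD 4 and 6 without HFD/FGFR4 KD 3. Of the 11 female-biased genes 5 rose and none fell (median 1.13), led by *Prlr*, *Cyp17a1* (2.85, adjusted p = 0.0313) and *Rtn4* (1.04, adjusted p = 0.0367), and 8 rose without HFD/FGFR4 KD 1.

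The difference of the KD effects between the diets was tested as an interaction, which called 0.0353% of all genes (4) and none of the 10. At an unadjusted p under 0.05 it held 765 genes. *Elovl3* came nearest with 1.20 (95% interval 0.41 to 1.99, adjusted p = 0.571), and DESeq2 called it (1.17, adjusted p = 0.217). For *Slco1a1* the value was 1.71 (−0.16 to 3.59), for *Hsd3b5* 2.79 (−1.26 to 6.85, and 1.37 without HFD/FGFR4 KD 1) and for *Cyp4a12a* 0.12 (−1.04 to 1.29, and −0.19 without HFD/FGFR4 KD 1). The comparisons share groups, so their values are set side by side and are not independent.

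Further gene lists were counted in the same way. Shares over all genes to set beside their counts were 13.3% higher and 12.7% lower on HFD in saline mice. They were 10.1% in each direction for diet in KD mice, and 1.50% higher and 1.64% lower for KD on HFD. Of 8 lipid genes known to rise in liver when growth hormone signalling is lost, 6 were tested, and on HFD in saline mice 5 rose and none fell, with a median of 1.97. *Plin4*, a lipid droplet coat gene, rose by 1.82 (adjusted p = 0.0013), the fatty acid transporter gene *Cd36* by 2.46 (adjusted p = 0.00532) and the lipoprotein receptor gene *Vldlr* by 2.12 (adjusted p = 0.0137). *Cd36* read 36.5, 9.65, 65.3 and 30.8 CPM in Chow and 224, 118, 225 and 128 in HFD, where HFD 1 and 3 were the high pair. With KD on HFD, *Plin4* (−1.10, adjusted p = 0.0807) and *Cidec*, another droplet gene (−2.29, adjusted p = 0.185), fell and none rose, and 1 call was left without any one of HFD/FGFR4 KD 1, 3 or 4 and HFD 1 or 3. In KD mice *Cd36* (1.61, adjusted p = 0.0819) and *Vldlr* (1.11, adjusted p = 0.246) rose on HFD, and 1 was called when any one of 9 libraries was left out.

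Of 15 transcription factors tied to sex-biased expression, 14 were tested. On HFD in saline mice 3 fell and 1 rose (median −0.05), where 12.7% of all genes fell and 13.3% rose. Those that fell were *Foxa3* (−0.74, adjusted p = 0.057), *Hnf4a* (−0.44, adjusted p = 0.108) and *Zhx2* (−0.45, adjusted p = 0.135), and of the 4 calls 1 was left without Chow 1 or HFD 3 and 2 without Chow 2 or HFD 2. With KD on HFD *Cebpb* rose (1.32, adjusted p = 0.16), from 25.6, 36.6, 30.8 and 32.9 CPM to 84.1, 79.0, 62.9 and 89.6, without overlap, but no gene of the list was called without HFD 1 or 3 or HFD/FGFR4 KD 1 or 4, and 2 were without HFD 2. In KD mice *Cebpa* (0.47, adjusted p = 0.0361) was among 3 that rose on HFD and *Foxa3* fell (−0.74, adjusted p = 0.0828), with 2 of 4 calls left without HFD/FGFR4 KD 4.

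Clock genes were followed because *Elovl3* and some growth hormone targets also cycle over the day. On HFD in saline mice 6 of 8 tested genes of the Rev-erb and PAR-bZIP arm rose (median 0.95), led by *Tef* (1.11, adjusted p = 0.0019), *Per3* (2.64, adjusted p = 0.00334) and *Dbp* (4.32, adjusted p = 0.00344). Of 6 genes of the Bmal1 arm 5 fell (median −1.49), led by *Clock* (−1.08, adjusted p = 0.000592), *Nfil3* (−1.89, adjusted p = 0.00232) and *Arntl* (−2.09, adjusted p = 0.00296). With KD on HFD *Per2* (−0.85, adjusted p = 0.177) and *Dbp* (−1.09, adjusted p = 0.249) fell, and *Arntl* (1.55, adjusted p = 0.102), *Clock* (0.53, adjusted p = 0.177) and *Nfil3* (1.16, adjusted p = 0.186) rose. No gene of the first arm was called without any one of HFD/FGFR4 KD 1, 3 or 4 and HFD 3 or 4, 1 was without any one of Chow 1, 3 or 4 and Chow/FGFR4 KD 1, 2 or 3, and 4 were without HFD 1. Of the second arm 1 gene was called without any one of HFD/FGFR4 KD 1, 3 or 4 and HFD 4, and none without HFD 3. In KD mice 7 of 8 and 5 of 6 genes moved on HFD in the same directions as above, among them *Tef* (1.16, adjusted p = 0.00488) and *Cry1* (−1.33, adjusted p = 0.0052), with 3 of the latter 5 without Chow/FGFR4 KD 3 or HFD/FGFR4 KD 2. Both clock arms and the male-biased genes thus moved with diet, and within HFD they ordered the single libraries differently. Against the Chow mean, the median of the first arm was 0.56, 1.02, 1.08 and 1.22 in HFD 1 to 4, and that of the second arm was −0.93, −1.23, −1.35 and −1.92. Of the HFD libraries, HFD 1 was the nearest to Chow in both, and there the male-biased median was lowest. *Elovl3* read 138, 177, 73.1 and 82.0 CPM in HFD 1 to 4. It was higher in HFD 1 and 2, whose second-arm medians were the nearest to Chow. In HFD/FGFR4 KD 1 the male-biased median was −0.15. The first arm was at 0.55 there, within the 0.43 to 0.76 of the other 3 libraries of its group. The second arm was at −0.26, nearer to Chow than the −0.998, −0.626 and −0.583 of HFD/FGFR4 KD 2, 3 and 4. Within that group, HFD/FGFR4 KD 1 was thus the nearest to Chow in both the second arm and the male-biased genes. The part of the clock genes in the change of *Elovl3* was not tested, and the hour at which livers were taken is not given in the sources used here.

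Of 13 acute-phase genes 3 fell and 1 rose on HFD in saline mice (median 0.08), where 12.7% of all genes fell and 13.3% rose. The acute-phase genes that fell were the fibrinogen genes *Fgb* (−0.68, adjusted p = 0.0314), *Fgg* (−0.69, adjusted p = 0.0342) and *Fga* (−0.66, adjusted p = 0.0393). In KD mice 4 fell, with *Fga* at −0.81 (adjusted p = 0.0313), *Fgg* at −0.80 (adjusted p = 0.0367) and *Fgb* at −0.75 (adjusted p = 0.0393). None rose, where 10.1% of all genes fell and 10.1% rose. No acute-phase gene was called for KD on either diet. Leaving out Chow/FGFR4 KD 4 raised the calls to 8 for diet in saline mice and 6 in KD mice.

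**Figure D4:**
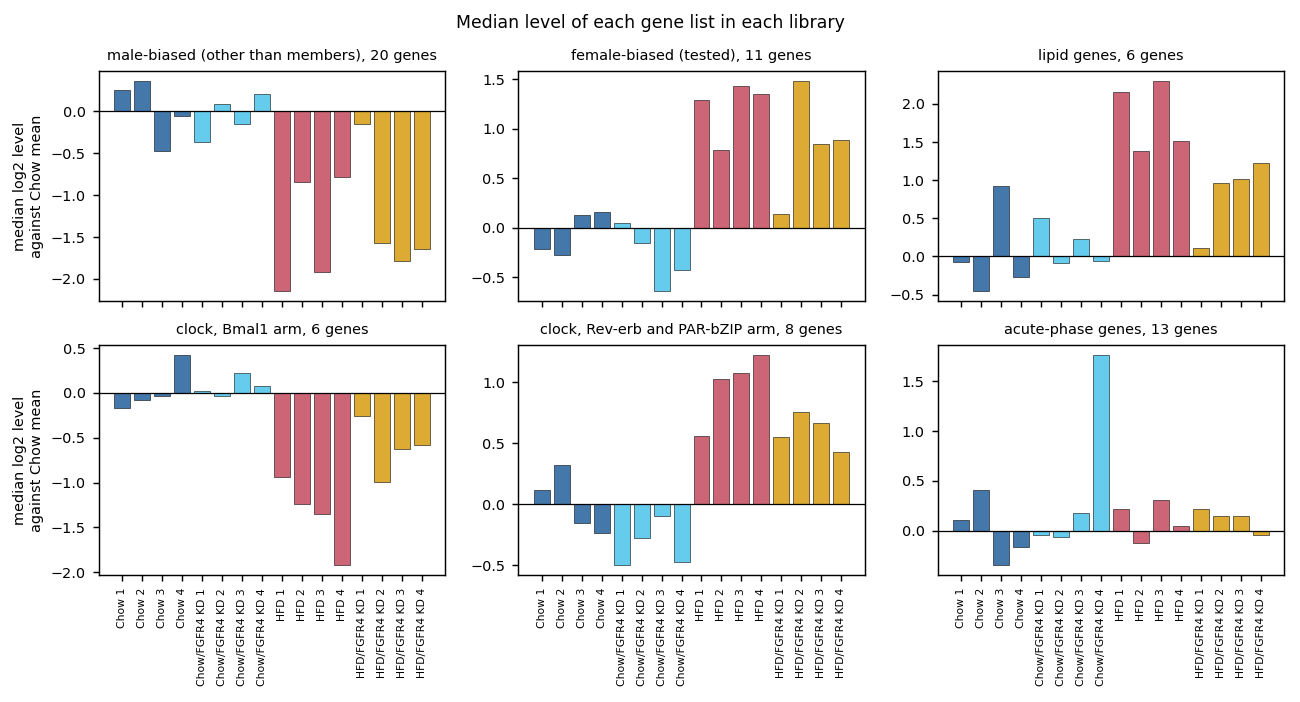
Median over the genes of a list of log2 CPM minus the mean of the Chow libraries (vertical axes, with bars from 0) in each of the 16 libraries, for 6 lists; colours mark the groups. HFD/FGFR4 KD 1 lies near 0 for male-biased (−0.15), female-biased (0.14) and lipid genes (0.11), and Chow/FGFR4 KD 4 stands out in acute-phase genes (1.76).

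The spread within groups set the genes of the axis apart from each other. The pooled SD of log2 CPM within groups was 2.44 for *Hsd3b5*, 1.56 for *Cish*, 1.30 for *Socs2* and 1.06 for *Slco1a1*, which ranked 3, 37, 70 and 114 of 11324 genes. It was 0.64 for *Cyp4a12a*, 0.43 for *Elovl3* and 0.34 for *Igfals*, and 0.23 for *Igf1*, 0.20 for *Stat5b* and 0.14 for *Ghr*. The median of all genes was 0.25, so the last 3 were at or under a typical gene. The order did not follow the level per length in Chow, where *Elovl3* and *Hsd3b5* were both among the higher genes. The pooled values hide a difference between the groups, however. For *Hsd3b5* the SD was 0.13 in Chow and 0.32 in Chow/FGFR4 KD, against 3.82 in HFD and 3.03 in HFD/FGFR4 KD. Its level was low in the latter 2 groups, with HFD 1 and 3 at or under the floor. For *Slco1a1* the SD was 0.19, 0.27, 1.94 and 0.80 in the same order.

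**Figure D5:**
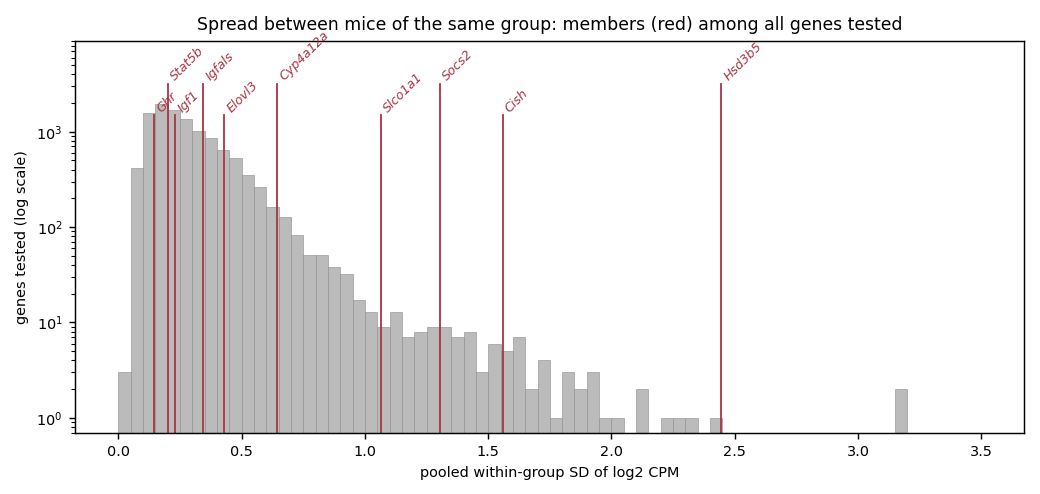
Number of genes tested (vertical axis, log scale) by pooled within-group SD of log2 CPM (horizontal axis), with red lines at the 10 genes of the axis. *Hsd3b5* (2.44), *Cish* (1.56), *Socs2* (1.30) and *Slco1a1* (1.06) lie in the upper tail, and *Ghr* (0.14), *Stat5b* (0.20) and *Igf1* (0.23) near the bulk.

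Deviations from the group means were compared between genes over the 16 libraries as a description, since all points share libraries and scaling. *Hsd3b5* and *Slco1a1* deviated together (Pearson r = 0.94, Spearman rho = 0.94, and r = 0.96 without the 2 libraries farthest from the median of *Hsd3b5*). *Socs2* and *Igf1* had r = 0.82 and rho = 0.81 (0.73 without the 2 farthest), and *Socs2* and *Cish* had r = 0.78 and rho = 0.66 (0.53). *Ghr* and *Hsd3b5* had r = 0.84 and rho = 0.75 (0.67). *Elovl3* and *Hsd3b5* had r = 0.39 and rho = 0.19 (−0.18). So among the targets that fell on HFD, *Hsd3b5* and *Slco1a1* split the same mice, and *Elovl3* and *Hsd3b5* ordered them differently.

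Outside the 10 genes, 6869 genes with a mean of at least 10 CPM were ranked by the same measure. For *Socs2* the nearest were *Nlrp12* (r = 0.93, also an unnamed gene with identical values), *Polr1c* (0.89), *Onecut1* (0.89) and *Slc25a30* (0.88). For *Igf1* they were *Creb3l3* (0.90), *Cyp2c67* (0.88), *Ces3b* (0.87), *Nrep* (0.86) and *F9* (0.86). For *Hsd3b5* they were *Serpina3k* (0.96), *Mup19* (0.95), *Mup13* (0.94, with another unnamed gene of identical values) and *Mup14* (0.94). The *Mup* genes share most of their sequence with each other.

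Markers of cell types were summed for each library. The 8 hepatocyte markers summed to between 59269 and 81431 CPM over all groups. Singly, 4 of the 8 were called lower and 0 higher on HFD in saline mice, where 12.7% and 13.3% of all genes were. With KD on HFD 2 were called lower and 1 higher, where 1.64% and 1.50% of all genes were. For diet in KD mice 1 was called lower and 0 higher, where 10.1% of all genes were in each direction. The 6 macrophage markers summed to 40.8 to 46.9 CPM in Chow, 51.8 to 71.7 in Chow/FGFR4 KD, 74.7 to 147 in HFD and 65.5 to 125 in HFD/FGFR4 KD. The 6 stellate cell markers summed to 90.2 to 131, 75.8 to 123, 149 to 264 and 105 to 180.0 CPM in the same order, and the 5 endothelial markers to 85.3 to 111, 63.1 to 97.3, 92.9 to 108 and 77.8 to 95.9. The 5 cholangiocyte markers stayed between 14.4 and 92.5 CPM, and the 4 markers of T and B cells were at most 3.08. The 4 adipocyte markers summed to 0.532 to 11.2 CPM in Chow, 0 to 3.37 in Chow/FGFR4 KD, 10.9 to 24.4 in HFD and 3.82 to 8.19 in HFD/FGFR4 KD. Nearly all of this was *Cfd*, the complement factor D gene, which rose on HFD in saline mice (2.82, adjusted p = 0.0214) and fell with KD on HFD (−1.57, adjusted p = 0.228) and was named after its values were seen. The other 3 were near or at 0, with *Lep* at 0 in all 16 libraries and *Adipoq* and *Plin1* at no more than 1.21 and 0.605 CPM. The collagen genes *Col1a1* and *Col3a1*, named after their values were seen, were highest in HFD 1 and 3, at 38.6 and 41.1 CPM and at 83.1 and 74.8 CPM. Thus macrophage and stellate markers and *Cfd* were higher in the group in which the male-biased targets fell. Their part in these results was not tested.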

How the data were processed

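Liver libraries were grouped by their diet and treatment labels. The deposited table holds estimated counts for 52143 Ensembl genes, which the authors made by kallisto pseudoalignment and tximport, with fastp and GRCm38 named in the submitters' processing notes. The transcriptome release is not given in the sources used here. Estimated counts divide reads among genes of similar sequence by a model. No scaling was seen in the deposited values, and 27199 genes were at 0 throughout.

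Genes with under 1 CPM in more than 4 libraries were left out. TMM factors (edgeR 4.0.16) scaled the counts, which were then fitted with limma-voom (limma 3.58.1, R 4.3.3), with a mean for each group over all 16 libraries and Benjamini-Hochberg adjustment over 11324 genes. Library totals set the precision, and 3 counts were taken as the floor, which covers counting error only. Per-library medians and SDs used log2 CPM with a prior count of 2. Lists are described by counts and medians, with no test. The 10 genes and the lists (receptor, kinase and STAT, feedback, IGF system, male-biased, female-biased, transcription factor, lipid, both clock arms and acute-phase genes) were chosen with earlier results of these data known. Named genes were *Fgfr4*, the 10 genes, at most 3 called genes with the smallest p for each list and comparison, and the 5 genes most like *Socs2*, *Igf1* and *Hsd3b5*. Others are said to be chosen after their values were seen. Single genes that this rule also names are not reported here, though the counts of their lists include them.

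Results were recomputed with the quasi-likelihood test of edgeR, with DESeq2 1.42.0 on rounded counts or its size factors, keeping genes of 1 CPM in 4 or more libraries, unfiltered, with library totals, upper quartiles, removal of *Gm42418* and *Lars2*, library quality weights, a fit to the compared groups alone, a replicate block, an adjusted p under 0.05 and leaving out each library. Sums of similar genes and the removal of 2 libraries together were added after seeing the data. The scripts were tested on simulated counts. Pairs of libraries within a group differed beyond counting error (chi-square of 7.59 to 72.6 per degree of freedom over 7405 genes), so none was counted as a copy of another.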

Additional observations from a re-analysis of the deposited data

Results flagged for a closer look

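Among 80 sets of 4 values examined with Dixon's test for a library far from the other 3 (at its 95% critical value), where chance alone gives about 4, 3 held such a library. *Hsd3b5* in HFD/FGFR4 KD 1 was at 166 CPM, and the other HFD/FGFR4 KD libraries read 1.49 to 10.1. *Ghr* in the same library was at 463 CPM, and the others read 368 to 370.0. The median of the acute-phase genes in Chow/FGFR4 KD 4 was 1.76 above the Chow mean on the log2 scale, and the other Chow/FGFR4 KD libraries lay from −0.06 to 0.17. In HFD/FGFR4 KD 1 *Fgfr4* read 2.82 CPM, within the range of the KD libraries. That library also differed from its group in *Gm42418*, named after its values were seen, and in its TMM factor. *Gm42418* held 22.3% of its counts, against 13.7% to 16.2% in the others of the group and 13.4% to 22.7% in Chow. Its TMM factor was 0.910, against 1.08 to 1.12 in the others of the group. The part of this in its levels was not tested.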

How the results depend on the processing

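The count of called genes among the 10 was 4 for diet in saline mice (3 to 6 over all alternatives), 3 for diet in KD mice, 1 for KD on HFD, and 0 both on chow and for the interaction. For KD on HFD it became 2 with library quality weights, 0 at an adjusted p under 0.05, and 0 to 2 when a library was left out (0 without HFD 3, 2 without HFD 2 or HFD 4). For diet in KD mice it was 2 at an adjusted p under 0.05 (*Hsd3b5* lost), 4 with only the groups compared (*Slco1a1* gained) and 3 to 5 when a library was left out (5 without Chow/FGFR4 KD 3). The interaction had 1 with DESeq2. With library totals as the only scaling, the median over all genes was shifted by 0.29 for diet in saline mice and 0.14 in KD mice, and the signs of small changes turned. For diet in saline mice they were then *Ghr* 0.089, *Stat5b* 0.13, *Cish* 0.29, *Igf1* 0.028 and *Igfals* 0.0037, and in KD mice *Ghr* 0.083, *Stat5b* 0.13, *Igf1* 0.14 and *Igfals* 0.12, with the interaction of *Cyp4a12a* at −0.0050. Upper-quartile scaling turned *Stat5b* to 0.014, *Igf1* to 0.028 and *Igfals* to 0.0040 in KD mice. *Cish* for diet in saline mice turned to 0.30 with edgeR, 0.37 with DESeq2, 0.22 with quality weights and 0.19 with the replicate block. *Socs2* for KD on chow turned to 0.13, 0.082 and 0.077 with edgeR, DESeq2 and the block, and *Igfals* in KD mice to 0.00015 with DESeq2. Without HFD/FGFR4 KD 1 and Chow/FGFR4 KD 4 together, *Elovl3* for KD on chow was 0.028 and the interaction of *Cyp4a12a* −0.18. When a library was left out, signs turned in these ranges: *Cish* from −0.70 to 0.48 for diet in saline mice, *Ghr* from −0.10 to 0.060 and *Igfals* from −0.32 to 0.050 for KD on HFD, *Socs2* from −0.81 to 0.56, *Igf1* from −0.16 to 0.032 and *Elovl3* from −0.17 to 0.028 for KD on chow, *Igf1* from −0.15 to 0.052, *Stat5b* from −0.14 to 0.054 and *Igfals* from −0.20 to 0.12 for diet in KD mice, and the interaction of *Cyp4a12a* from −0.36 to 0.42. None of these had been called, and the cause was not tested. Replicate numbers are shared between groups, but same-numbered libraries deviated with correlations from −0.29 to 0.24, so they were not treated as paired. With the replicate block *Hsd3b5* had −4.94 for diet in saline mice (adjusted p = 0.0519), and *Fgfr4* had −2.77 on HFD and −2.61 on chow.

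With 4 libraries a group and the spread given above, intervals of *Socs2*, *Cish* and *Hsd3b5* spanned several log2 units. A change that was not called is therefore not shown to be absent, and some were called under other settings, as given above. Levels at or under 3 counts carry no fold. The fitted −6.61 of *Hsd3b5* for diet in saline mice is therefore not a measured size, since HFD 1 and 3 held 0 and 1 counts.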
